A study of Danio rerio with 18 samples.

Results

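Sex steroids are made from cholesterol by a chain of cytochrome P450 enzymes and hydroxysteroid dehydrogenases, travel in blood on carrier proteins and act through nuclear receptors. In fish the aromatase of the brain is found in radial glial cells and its transcription responds to estrogens, and the liver is a known source of the plasma carrier of sex steroids. The zebrafish genes cyp17a1, cyp19a1b, hsd17b8 and shbg of this system were followed here in larvae exposed to bisphenol A (BPA). This chemical goes into the making of polycarbonate plastics and epoxy resins and binds estrogen receptors weakly. The product of cyp17a1 is the enzyme with steroid hydroxylase and lyase activity that opens the way to androgens, and that of cyp19a1b is the brain aromatase that turns androgens into estrogens. hsd17b8 encodes a hydroxysteroid dehydrogenase and shbg the sex hormone-binding globulin of plasma.

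Members were all probes whose gene symbol is 1 of these 4 names, in the platform annotation or after older names had been updated through RefSeq. This gave 6 of the 22980 probes, for 4 of the 9264 named genes. The current symbol is carried by 3 probes, namely cyp17a1 probe 5453536, cyp19a1b probe 5467162 and shbg probe 5464301. Another 3 carry an older name that RefSeq lists as a synonym, namely cyp17a1 probe 5448319 (zgc:66494), hsd17b8 probe 5454090 (fabgl) and shbg probe 5454795 (wu:fd55b08). Only the symbols decided which probes were members, but the 4 genes were chosen with earlier results of these data known.

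The data are 2-colour spotted oligonucleotide arrays of whole wild-type larvae, 50 pooled per array, taken after 7 days in egg water from 3 hpf (hours post-fertilization). Larvae received the vehicle (0.05% ethanol) alone as control (5 scans), or 500 (5 scans), 1500 (4 scans) or 4500 µg/L BPA (4 scans) with the same vehicle. Larval RNA carried Cy5 and was hybridized together with Cy3-labelled reference RNA, pooled from whole adult males and females at a ratio of 9:1, so that every value is a log2 ratio of larval over adult signal and 0 is near the middle of the probes of an array. In 2 pairs of scans (control replicates 4 and 5, 1500 µg/L replicates 3 and 4) the Cy5 foreground was the same at 99.83% and 99.98% of spots, against at most 0.48% for any other pair, and each pair was counted as 1 array. This left 16 arrays, with 4 in the control group and groups of 5, 3 and 4 in order of rising BPA concentration. The median Cy3 background was 162 to 247 scanner units on the control and 500 µg/L arrays, and below 150 units on 2 of 3 arrays at 1500 µg/L and on 2 of 4 arrays at 4500 µg/L (replicates 2 and 3). In pooled whole larvae, fewer cells of a type and less RNA per cell cannot be told apart.

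Among the 6 probes, 1 passed the test against control larvae at an adjusted p under 0.05 (limma, Benjamini-Hochberg over all probes). The shbg probe 5454795 was lower at 4500 µg/L by a log2 fold change of -1.46, a 2.74-fold difference. The share of all probes called in this comparison was 3.08%, and 0.296% were called lower. No member passed at 1500 µg/L, where 0.0131% of all probes did, or at 500 µg/L, where the share was 0%. At an unadjusted p under 0.05, limma counted 855 probes at 500 µg/L (3.72%), and the shares were 11.2% at 1500 µg/L and 21.8% at 4500 µg/L. Under the methods' tests, 0 probes passed at 500 µg/L after adjustment and 1172 before it. The members past the unadjusted threshold were cyp17a1 probe 5453536 at 500 and 4500 µg/L and shbg probe 5454795 at 4500 µg/L. The 3 comparisons share the control arrays.

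**Figure D1:**
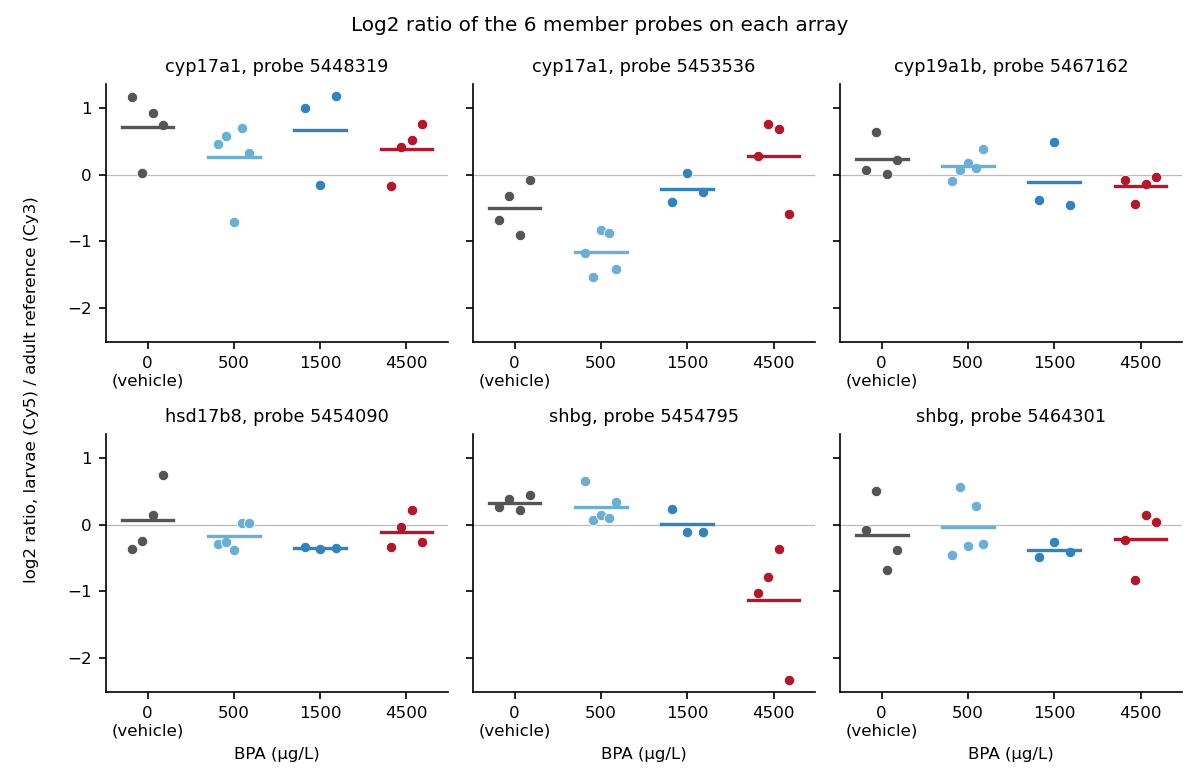
Log2 ratio of larval over adult reference signal (y axis) of the 6 probes on each of the 16 arrays (points), by BPA concentration (x axis, 0 is the vehicle control), with group means as lines. All 4 arrays at 4500 µg/L lie below the other 12 arrays for shbg probe 5454795, while the other shbg probe shows no such separation. The share of all probes separated in this way was not counted.

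shbg was described first, since it held the only call against control. Probe 5454795 had log2 ratios of 0.27, 0.38, 0.22 and 0.44 on the control arrays and of 0.66, 0.07, 0.15, 0.10 and 0.34 at 500 µg/L. At 1500 µg/L the ratios were 0.23, -0.11 and -0.12, and at 4500 µg/L they were -1.03, -0.79, -0.37 and -2.33. Every array at 4500 µg/L was thus below every array of the other 3 groups, and replicate 4 was the lowest by a wide margin. Across all probes, 2.86% had all arrays at 4500 µg/L below all control arrays, and 2.18% had them all below those at 500 µg/L. The share with them all below those at 1500 µg/L, or below all other arrays together, was not counted.

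The mean log2 ratio of this probe was -1.13 ± 0.85 at 4500 µg/L (SD, n = 4), against 0.33 ± 0.10 in control larvae (SD, n = 4). The log2 fold change of -1.46 had a standard error (SE) of 0.31, a 95% confidence interval of -2.10 to -0.81 and an adjusted p of 0.0225 from limma, and 2 of the 22980 probes had a lower fold change. The exact permutation test over arrays gave p = 0.0286 (2-sided), the smallest value that 4 against 4 arrays allow. At 1500 µg/L the log2 change against control was -0.33 (SE 0.33, adjusted p = 0.734) and at 500 µg/L it was -0.06 (SE 0.29, adjusted p = 1). Between concentrations, the 4500 µg/L group differed by -1.39 from the 500 µg/L group (SE 0.29, adjusted p = 0.0665) and by -1.13 from the 1500 µg/L group (SE 0.33, adjusted p = 0.97). Neither of these passed the threshold. The arrays do not overlap in either, which against the 1500 µg/L group gave an exact permutation p of 0.0571 (smallest possible 0.0286). For the 1500 µg/L group the share of all probes without overlap was not counted, so this separation has no background to be read against. Without 4500 µg/L replicate 4 the difference from the 500 µg/L group was -0.99 and passed (adjusted p = 0.016). Over all probes, 19 were called in this comparison with all arrays, and 0 to 1682 when 1 array was left out.

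The call of probe 5454795 at 4500 µg/L did not hold in several settings. It was lost without control replicate 1 (-1.48, adjusted p = 0.0576), control replicate 2 (-1.44, adjusted p = 0.0613), control replicate 3 (-1.49, adjusted p = 0.0577), 4500 µg/L replicate 1 (-1.49, adjusted p = 0.0693) or 4500 µg/L replicate 2 (-1.57, adjusted p = 0.0643). Without 4500 µg/L replicate 4, the lowest array, the value was -1.06 and the call stood (adjusted p = 0.00901). In that setting 2888 of the 22980 probes were called, against 707 with all arrays. The call also stood when any 1 of the other 10 arrays was left out, with values of -1.42 to -1.71.

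The second probe of the gene, 5464301, listed under the symbol shbg, gave other values on the same arrays. Its log2 ratios were -0.08, 0.50, -0.68 and -0.39 on the control arrays and -0.45, 0.56, -0.32, 0.27 and -0.29 at 500 µg/L. They were -0.49, -0.26 and -0.42 at 1500 µg/L, and -0.23, -0.83, 0.14 and 0.03 at 4500 µg/L. The groups overlap throughout. At 4500 µg/L the log2 change against control was -0.06 (SE 0.29, adjusted p = 0.934), with a 95% confidence interval of -0.67 to 0.55. At 1500 µg/L it was -0.22 and at 500 µg/L it was 0.12, both with an adjusted p of 0.816 or above.

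The 2 shbg probes were then set against each other within arrays. Probe 5454795 minus probe 5464301 averaged -0.91 at 4500 µg/L, against 0.49 in control larvae, a change of -1.40 on the log2 scale (exact permutation test over arrays, 2-sided, p = 0.0571, smallest possible 0.0286). Set against the 500 µg/L group, where the difference between probes averaged 0.31, the change was -1.22 (exact permutation p = 0.0476). The mean of both probes at 4500 µg/L differed by -0.76 on the log2 scale from that in control larvae (exact permutation p = 0.0571) and by -0.78 from that at 500 µg/L (exact permutation p = 0.00794). Over the 16 arrays the 2 probes correlated at r = -0.03, a description in which all points share the reference RNA. Which transcript of the gene each probe measures was not tested, since probe sequences were not used here.

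**Figure D2:**
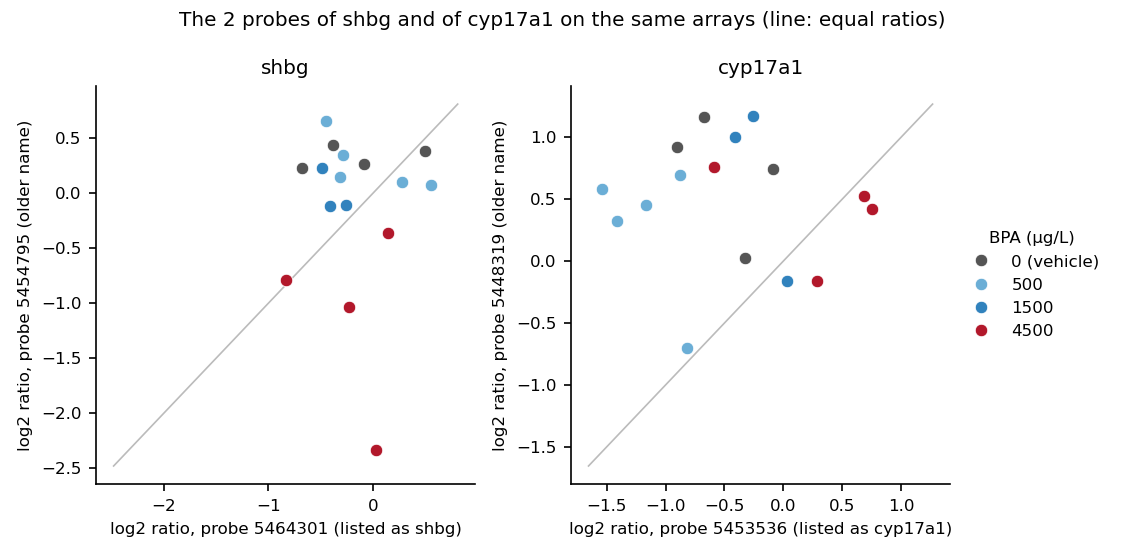
Log2 ratio of the 2 probes of shbg (left) and of cyp17a1 (right) on the same 16 arrays, with the probe listed under the current symbol on the x axis and the probe with the older name on the y axis. The 4 arrays at 4500 µg/L lie below the others for shbg, and 3 of these 4 lie to the right of the others for cyp17a1, and the grey line marks equal ratios.

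The 2 channels of shbg probe 5454795 were also read separately. In scanner units, the Cy5 foreground over its local background at 4500 µg/L was 827 over 314, 462 over 277, 296 over 253 and 2194 over 358, and the Cy3 foreground was 1292 over 219, 588 over 111, 238 over 105 and 5536 over 350. The spot of replicate 4 was the brightest of the 16 in both channels, and that of replicate 3 the dimmest of the 16 in both. On the log2 scale and relative to the median probe of each array, the larval Cy5 signal averaged 0.51 ± 2.07 at 4500 µg/L, against 0.46 ± 0.17 in control larvae (SD, n = 4 each). The Cy3 signal of the adult reference averaged 1.31 ± 2.49 at 4500 µg/L, against -0.01 ± 0.25 on the control arrays. From the Cy5 channel alone, normalized between arrays, the log2 fold change at 4500 µg/L was 0.06 with an SE of 0.73 (adjusted p = 0.989 from limma). The lower value at 4500 µg/L was thus seen in the ratio and not in the larval channel alone, whose SE was the larger of the 2 (0.73, against 0.31 for the ratio).

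**Figure D3:**
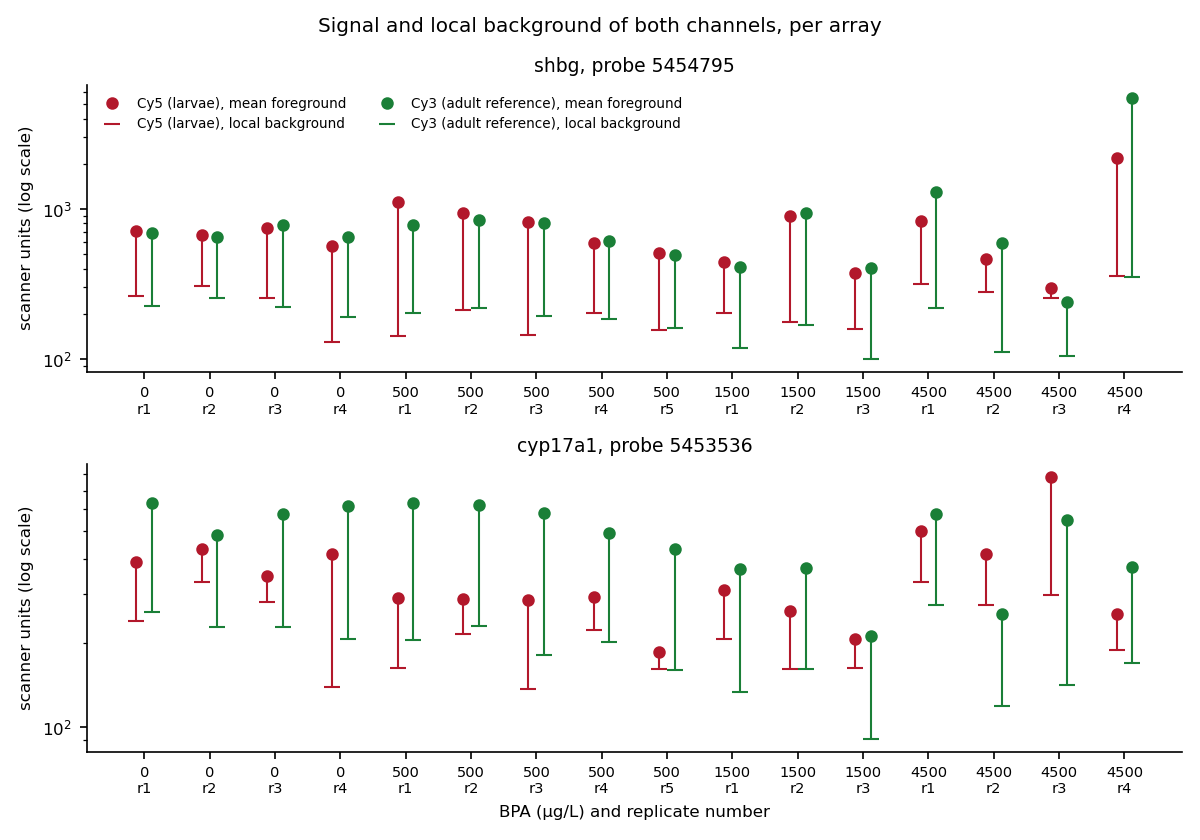
Mean foreground (points) and local background (ticks) in scanner units on a log axis, for the larval Cy5 and the adult reference Cy3 channel on each of the 16 arrays, ordered by BPA concentration and replicate number. For shbg probe 5454795, Cy3 exceeded Cy5 on 3 of 4 arrays at 4500 µg/L. It also did so, by smaller margins, on some arrays of every other group, among them control replicates 3 (776 against 744) and 4 (653 against 570). For cyp17a1 probe 5453536 the Cy5 signal stayed close to its background on most arrays.

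Liver is a known source of this carrier, so the liver markers stand beside it. At 4500 µg/L, 1 of 13 liver probes (10 of 12 listed genes measured) passed upward, 0 passed downward, and their median log2 fold change was 0.01, against 0.02 over all probes. The mean ratio over these probes ranged from -0.66 to 0.06 on the 4500 µg/L arrays and from -0.62 to -0.36 on the control arrays. Their part in the shbg result was not tested.

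cyp17a1 showed its clearest difference between 2 BPA concentrations and not against control. Probe 5453536 had log2 ratios of -0.67, -0.32, -0.90 and -0.09 on the control arrays and of -1.17, -1.54, -0.82, -0.87 and -1.41 at 500 µg/L. The ratios were -0.41, 0.03 and -0.26 at 1500 µg/L, and 0.28, 0.76, 0.68 and -0.59 at 4500 µg/L. All arrays at 4500 µg/L and at 1500 µg/L were above all arrays at 500 µg/L, which was the case for 3.13% and 3.65% of all probes. The control arrays lay between and overlapped with each BPA group.

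The 4500 µg/L group exceeded the 500 µg/L group by 1.45 on the log2 scale, a 2.73-fold difference (SE 0.27, 95% confidence interval 0.88 to 2.02, adjusted p = 0.0488 from limma). The exact permutation test gave p = 0.00794, the smallest value that 4 against 5 arrays allow. In this comparison 0.0827% of all probes were called and 0.0783% were called higher, and 17.8% had an unadjusted p under 0.05. None of the other 5 probes was called in it. Against control, the probe had a log2 change of -0.67 at 500 µg/L (SE 0.27, unadjusted p = 0.0241, adjusted p = 1), with 3 of 5 arrays below all controls. At 4500 µg/L the change was 0.78 (SE 0.29, unadjusted p = 0.0138, adjusted p = 0.123), with 3 of 4 arrays above all controls. Neither difference from control passed after adjustment, but without 4500 µg/L replicate 4 the second was 1.07 and passed (adjusted p = 0.0146). In that setting 2888 probes were called over all probes, against 707 with all arrays.

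Between 1500 and 500 µg/L the log2 difference of this probe was 0.95 (SE 0.30, adjusted p = 0.602, exact permutation p = 0.0179), and between 4500 and 1500 µg/L it was 0.50 (SE 0.31, adjusted p = 0.97). limma called 0% of all probes in either, with 1757 probes (7.65%) and 971 probes (4.23%) at an unadjusted p under 0.05. In the first, 1 probe passed the methods' t-test after adjustment.

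Probe 5453536 was dim. Its mean intensity stood at percentile 12.7 of all probes, the Cy5 foreground was 1.51 times the local background at the median array, and 4 of 16 arrays kept a deposited ratio for it. The call between 4500 and 500 µg/L stood when control replicate 4 (adjusted p = 0.0413), 1500 µg/L replicate 2 (adjusted p = 0.0471) or 4500 µg/L replicate 4 (log2 difference 1.74, adjusted p = 0.00639) was left out. It was lost without any 1 of the other 13 arrays, with log2 differences of 1.29 to 1.53. The number of all probes called in this comparison ranged from 0 to 1682 over these omissions. The 2 arrays at 4500 µg/L with a low Cy3 background gave 0.76 and 0.68, and the other 2 gave 0.28 and -0.59. Over the arrays with a Cy3 background of 150 units or more, the difference was 1.01 (adjusted p = 0.485), and the part of the background in this result was not tested further.

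The other cyp17a1 probe, 5448319, was bright, at percentile 86.7 of mean intensity, and all 16 arrays kept a deposited ratio for it. Its log2 ratios were 1.16, 0.03, 0.92 and 0.75 on the control arrays and 0.45, 0.58, -0.70, 0.70 and 0.33 at 500 µg/L. They were 1.00, -0.16 and 1.18 at 1500 µg/L, and -0.16, 0.42, 0.52 and 0.76 at 4500 µg/L. The groups overlap, and the low value at 500 µg/L came from 1 array, replicate 3. The log2 fold changes against control were -0.44, -0.04 and -0.33 at 500, 1500 and 4500 µg/L, with SE of 0.33, 0.38 and 0.35 and adjusted p of 0.617 or above. The 4500 µg/L group differed from the 500 µg/L group by 0.11 (SE 0.33, adjusted p = 0.882), with a 95% confidence interval of -0.58 to 0.80 that lies below the value of the dim probe.

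Probe 5448319 minus probe 5453536 averaged 0.10 at 4500 µg/L, against 1.44 at 500 µg/L, a change of -1.33 on the log2 scale (exact permutation p = 0.0476). The mean of both cyp17a1 probes was higher at 4500 than at 500 µg/L by 0.78 (exact permutation p = 0.0159, 9 arrays). Between 500 µg/L and control larvae it differed by -0.56 (exact permutation p = 0.0238), and the probes correlated at r = -0.11 over the 16 arrays. These p-values are not adjusted over the 16 tests of this kind, 8 of a difference between probes and 8 of their mean.

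Steroidogenic cells of the gonad and interrenal tissue are few in a larva. Of the interrenal markers 2 of 5 genes were measured, star and nr5a1a, with log2 fold changes of 0.42 and -0.05 at 4500 µg/L, and neither passed. Of the gonadal somatic markers 4 of 7 genes were measured by 5 probes, none of which passed, and their median log2 fold change was 0.46, against 0.02 over all probes. The 5 values were of mixed sign, from -0.53 to 0.58, and the 2 probes of amh gave -0.35 and 0.58. The mean ratio over the 5 probes ranged from 0.08 to 0.22 on the 4500 µg/L arrays, from 0.10 to 0.31 on the 500 µg/L arrays and from -0.26 to 0.18 on the control arrays. The part of these markers in the cyp17a1 values was not tested.

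**Figure D4:**
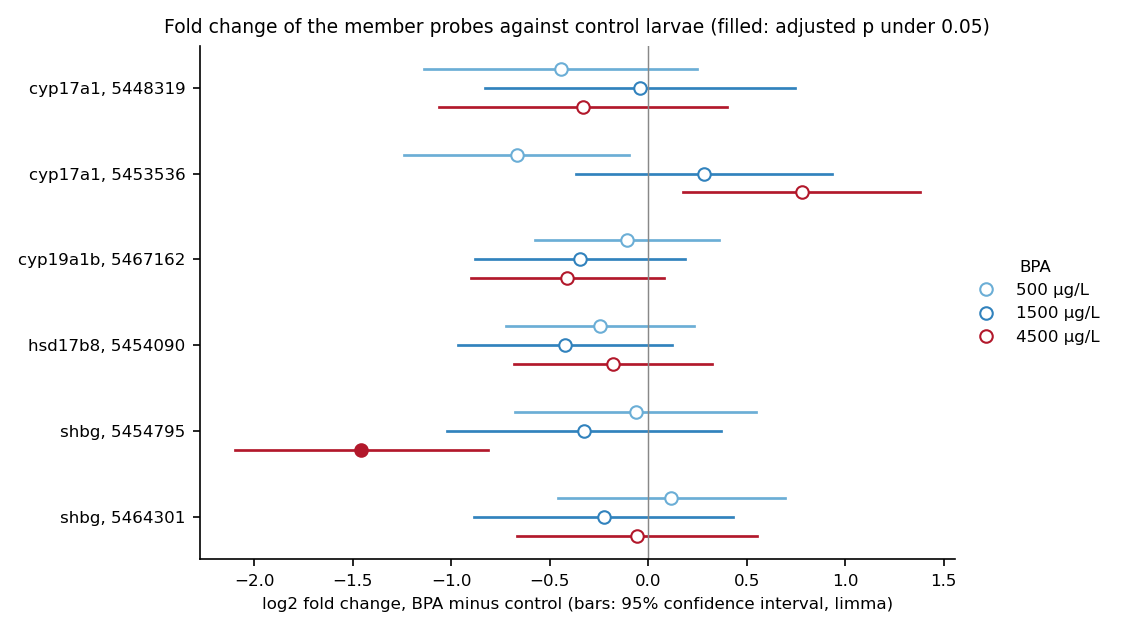
Log2 fold change of each of the 6 probes against control larvae (x axis), for the 3 BPA concentrations, with 95% confidence intervals from limma as bars and filled points for an adjusted p under 0.05. Only shbg probe 5454795 at 4500 µg/L is filled, at -1.46, and only this interval and those of cyp17a1 probe 5453536 at 500 and 4500 µg/L leave out 0.

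cyp19a1b, the brain aromatase gene, was measured by a single dim probe at percentile 22.7 of mean intensity. Its log2 ratios were 0.07, 0.64, 0.02 and 0.22 on the control arrays and -0.10, 0.07, 0.17, 0.10 and 0.38 at 500 µg/L. They were -0.38, 0.49 and -0.45 at 1500 µg/L, and -0.08, -0.45, -0.13 and -0.04 at 4500 µg/L. All arrays at 4500 µg/L were below all control arrays, by a small margin, as was the case for 2.86% of all probes. The log2 change at 4500 µg/L was -0.41 (SE 0.23, 95% confidence interval -0.90 to 0.08, adjusted p = 0.322), while the exact permutation test gave p = 0.0286, the smallest possible and not adjusted over probes. At 1500 µg/L the value was -0.35 (SE 0.25) and at 500 µg/L -0.11 (SE 0.22), and none passed. The order of these 3 estimates was not stable, since median centring gave -0.47, -0.36 and -0.44 and a term for arrays of low Cy3 background gave -0.11, -0.01 and -0.16 in order of rising concentration. In the Cy5 channel alone the values were -1.36 (SE 0.51, adjusted p = 1), -0.99 (SE 0.58) and -0.19 (SE 0.54). On the log2 scale relative to the median probe of each array, Cy5 averaged -1.38 at 500 µg/L, against 0.03 in control larvae. The Cy3 signal of the adult reference at the same spots was lower too, at -1.19 against -0.23. At 1500 µg/L Cy5 and Cy3 averaged -0.75 and -0.65. Since both channels moved, the Cy5 values alone do not show a change of larval RNA. The part of spot brightness was not tested. The 4500 and 500 µg/L groups differed by -0.30 (SE 0.22, adjusted p = 0.493). The gene had 5 deposited ratios over the 16 arrays, 0 of them at 500 and 1500 µg/L.

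Radial glial markers were taken beside it, 12 probes for 7 of 9 listed genes. At 4500 µg/L 1 passed upward and 0 downward, and the median log2 fold change was -0.25, against 0.02 over all probes. The probe that passed, of fabp7b, was dim, at percentile 28 of mean intensity. At an unadjusted p under 0.05 from limma, 1 probe of the list was higher and 4 were lower, and 21.8% of all probes passed in either direction. The mean ratio over the 12 probes ranged from -0.27 to -0.12 on the 4500 µg/L arrays and from -0.15 to 0.07 on the control arrays. The part of these markers in the cyp19a1b values was not tested. The gonadal aromatase gene cyp19a1a gave 0.12 (SE 0.23, adjusted p = 0.80) at the same concentration.

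hsd17b8 encodes an enzyme that in mammals oxidizes estradiol and, together with the product of cbr4, acts in mitochondrial fatty acid synthesis. Its log2 ratios were -0.37, -0.24, 0.15 and 0.75 on the control arrays and -0.29, -0.26, -0.39, 0.03 and 0.02 at 500 µg/L. They were -0.33, -0.37 and -0.35 at 1500 µg/L, and -0.34, -0.04, 0.21 and -0.27 at 4500 µg/L. The control arrays spread more widely than all the others, from -0.37 to 0.75, and replicate 4 was the highest of the 16 arrays. The log2 fold changes were -0.25, -0.42 and -0.18 at 500, 1500 and 4500 µg/L, with SE of 0.23, 0.26 and 0.24, and none passed (adjusted p of 0.555 or above). The 95% confidence interval at 4500 µg/L was -0.68 to 0.32. Without control replicate 4 the 3 fold changes were -0.02, -0.20 and 0.05. With the deposited ratios the 3 values were -0.55, -0.44 and -0.36, and with array quality weights they were -0.08, -0.30 and -0.02, again with none past the threshold. Deposited ratios of this probe were kept on 10 of 16 arrays, 3 of them control arrays, and 2, 2 and 3 in order of rising concentration. Control replicate 1, the lowest control array at -0.37, was not among them. cbr4, the partner of hsd17b8, had 0.41 (SE 0.24, adjusted p = 0.33) at 4500 µg/L.

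Across the 4 groups together, the F-test over the 3 BPA comparisons gave an FDR under 20% for cyp17a1 probe 5453536 and shbg probe 5454795, both at 0.0654. This threshold was passed by 6.29% of all probes. The other 4 probes had an FDR of 0.623 or above. By the one-way test of the methods on the same values, the FDR was 0.216 for this cyp17a1 probe and 0.217 for this shbg probe, so that neither passed. In that test 64 of the 22980 probes had an FDR under 20%.

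In unexposed larvae the 6 probes stood at different places relative to the adult reference. cyp17a1 probe 5448319 had a mean log2 ratio of 0.72 ± 0.49 in control larvae (SD, n = 4), which is 1.64 times the reference signal and percentile 97.4 of all probes. shbg probe 5454795 stood at 0.33 and cyp19a1b at 0.23 ± 0.28, at percentiles 82.7 and 74.8. hsd17b8 stood at 0.07 ± 0.50, shbg probe 5464301 at -0.16 ± 0.50 and cyp17a1 probe 5453536 at -0.50 ± 0.36, the last at percentile 16.6. Each ratio compares a probe with itself in 2 RNAs, so these places do not rank the levels of the genes. The probes with neighbouring places differed by less than their SD, except cyp17a1 probe 5448319 next to shbg probe 5454795, where the difference lay below the SD of the first and above that of the second.

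As a description over the 16 arrays, pairs of member probes correlated between -0.48 (cyp17a1 probe 5448319 with cyp19a1b) and 0.48 (cyp19a1b with shbg probe 5464301). After group means had been removed, the range was -0.67 to 0.67. The highest pair was then cyp17a1 probe 5453536 with shbg probe 5454795, at 0.67 within groups and -0.38 over all arrays. All arrays share the reference RNA and the normalization. The named genes most like a member were picked by their correlation with it over these same arrays, and they reached r of 0.77 to 0.86. How high r would go by chance in such a search was not computed. For shbg probe 5454795 these genes were taf11 (0.86), rpl24 (0.86) and setd7 (0.85), whose log2 fold changes at 4500 µg/L were -0.93, -1.36 and -0.67, none past an adjusted p of 0.05. Genes picked to follow this probe tend to share its fold change, so these values are no separate support for it. For cyp17a1 probe 5453536 the genes were si:ch211-226m16.2 (0.86), ppardb (0.85) and sh3glb1a (0.83), and for cyp19a1b they were ext2, ehmt1a and parn (0.85 each). hsd17b8 was closest to scarb1 (0.82), dync2h1 (0.79) and glceb (0.77), cyp17a1 probe 5448319 to tm4sf5 (0.83), pigc (0.80) and spns2 (0.78), and shbg probe 5464301 to xab2 (0.84), snx5 (0.83) and mia2 (0.81). No gene appeared for more than 1 member probe.

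The rest of the pathway was read at 4500 µg/L against control, where 2.78% of all probes were called higher and the median over all probes was 0.02. Of the genes of steroid synthesis from cholesterol, 14 of 26 listed were measured by 18 probes, 2 of which passed upward and 0 downward, with a median of -0.06. These were pora, the reductase that passes electrons to P450 enzymes including the product of cyp17a1 (1.87, SE 0.35, adjusted p = 0.016), and srd5a2b, a steroid reductase that makes stronger androgens (1.37, SE 0.33, adjusted p = 0.032). The pora probe was dim, at percentile 20.5 of mean intensity, and that of srd5a2b stood at 57.9. The call of pora was lost without control replicate 3 or 4500 µg/L replicate 2 (adjusted p up to 0.0676), and that of srd5a2b without control replicate 1, 2 or 3 or 4500 µg/L replicate 1, 2 or 3 (up to 0.115). Without background correction pora had 0.80 (adjusted p = 0.0671) and srd5a2b had 0.69 (adjusted p = 0.0894), and with the deposited ratios srd5a2b had 0.55 (adjusted p = 0.267). Of the other settings run besides single-array omissions, the call was lost in 5 of 13 for pora and in 9 of 16 for srd5a2b. These counts, and those of this kind below, include Aquantile normalization between arrays. That setting leaves every log2 ratio unchanged, so it could not lose a call. star, which brings cholesterol to the first enzyme, had 0.42 (SE 0.35), and hsd3b1, a dehydrogenase of an early step, had 0.11 (SE 0.30). The lowest value of the list was -1.01, at a probe of hsd11b2 (SE 0.30, adjusted p = 0.07) whose other probe gave 0.20. The 2 probes of srd5a2a gave 0.74 and -0.51.

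The hydroxysteroid dehydrogenase family of hsd17b8 had 11 of 17 genes measured by 15 probes, none of which passed, with a median of -0.15. The smallest p were those of hsd17b14 (-0.74, SE 0.26, adjusted p = 0.11) and of hsd17b4, a peroxisomal enzyme (-0.47, SE 0.22, adjusted p = 0.22). hsd17b14 had 3 probes, at -0.74, -0.57 and 0.08. For steroid inactivation and conjugation, 12 of 19 genes were measured by 13 probes and 1 passed, sult1st2, a sulfotransferase (1.56, SE 0.37, adjusted p = 0.032), beside sult1st4 at 0.93 (SE 0.30, adjusted p = 0.087). The call of sult1st2 was lost without control replicate 1, 2 or 3 or 4500 µg/L replicate 1, 2 or 3 (up to 0.114), and in 6 of 13 other settings, among them no background correction (0.66, adjusted p = 0.0995). The median of this list was -0.04.

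Receptors and regulators had 18 of 26 genes measured by 22 probes, none of which passed, with a median of -0.04. lhb, the specific subunit of the luteinizing hormone that drives gonadal steroid synthesis, had 1.20 (SE 0.37, adjusted p = 0.076), and esrrga, an estrogen-related receptor, had 0.81 (SE 0.34, adjusted p = 0.18). esr1, the estrogen receptor whose transcription answers to estrogens in fish, had 0.47 (SE 0.22, adjusted p = 0.23). The probes of lhb, esrrga and esr1 were dim, at percentiles 13, 28.1 and 2 of mean intensity. Among estrogen-responsive genes, the list that also holds cyp19a1b, 10 of 15 were measured by 11 probes, and 1 passed upward and 0 downward, with a median of 0.47. This was vtg4, a yolk precursor (1.92, adjusted p = 0.013), followed by vtg3 at 0.64 (adjusted p = 0.081). The yolk precursor genes vtg2 (-0.63, SE 0.27, adjusted p = 0.18) and vtg7 (-0.55, SE 0.27, adjusted p = 0.25) were lower, as was cyp19a1b. At an unadjusted p under 0.05 from limma, 5 probes of the list were higher and 1 was lower. The call of vtg4 was lost without 4500 µg/L replicate 1 or 2 (up to 0.0562) and in 5 of 14 other settings, among them no background correction (1.03, adjusted p = 0.0544).

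The plasma carriers of hormones and lipids, the list of shbg, had 13 of 18 genes measured by 17 probes, 1 of which passed downward, shbg probe 5454795, and 0 upward. The median was 0.00 and the values ran from -1.46 to 1.33. apoeb, an apolipoprotein, had 1.33 (SE 0.40, adjusted p = 0.069), and ttr, the carrier of thyroid hormone, 1.04 (SE 0.36, adjusted p = 0.11). The ttr probe was dim, at percentile 9.9 of mean intensity, and that of apoeb stood at 70.8. At 500 and 1500 µg/L no probe of these 6 lists passed.

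**Figure D5:**
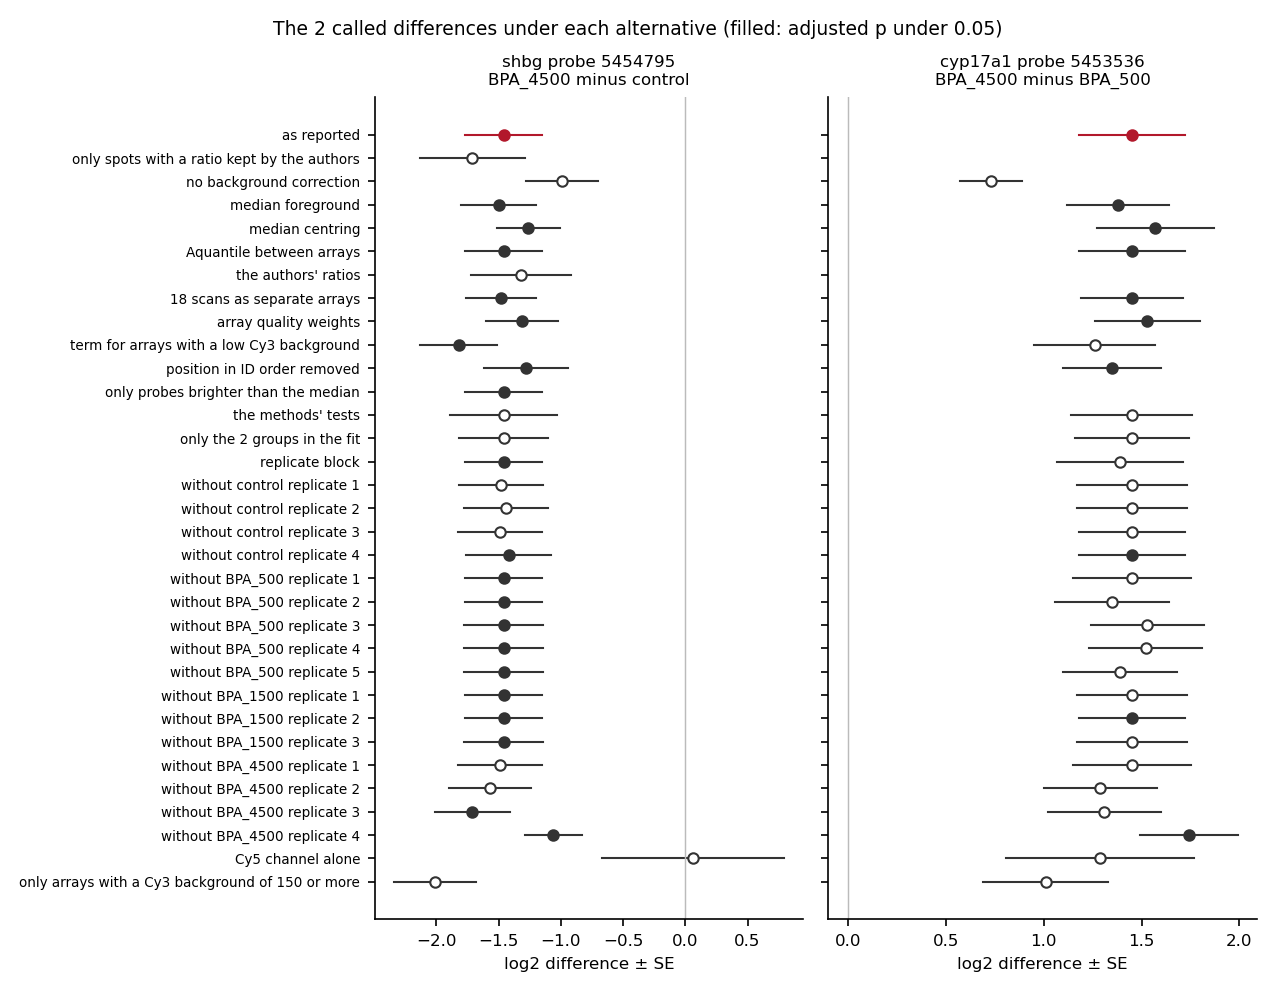
Log2 difference ± SE (x axis) of the 2 called comparisons, shbg probe 5454795 at 4500 µg/L against control (left) and cyp17a1 probe 5453536 at 4500 against 500 µg/L (right), as reported (red) and under each alternative setting (rows), with filled points for an adjusted p under 0.05. The direction was kept in all settings that gave a value, except for shbg in the Cy5 channel alone (0.06), while the adjusted p crossed the threshold in many. cyp17a1 probe 5453536 gave no value with only kept spots, with the deposited ratios or among probes brighter than the median. The Aquantile row repeats the reported value, since that setting changes no ratio.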

How the data were processed

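Per the file headers, the deposited intensity values are unnormalized foreground and local background in scanner units of both channels. The authors deposited log2 ratios of Cy5 over Cy3 after Lowess normalization for 5127 to 19980 of 23232 spots per scan, and these served as an alternative. In control replicate 1, 16654 lines were shifted by 1 column and were set right on reading.

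Mean foreground was corrected with the median local background (normexp, offset 50) and loess-normalized within arrays, and every spot was used. Spots of 1 accession and repeated scans were averaged. limma 3.58.1 in R 4.3.3 fitted the 4 groups together on 22980 probes with Benjamini-Hochberg adjustment, and exact permutation tests (2-sided) were run over arrays. Larvae were pooled per array and the labels call the samples biological replicates. The number of arrays limits the precision.

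Genes were named from the platform annotation, updated by accession (55 spots), current symbol (3538) or older name (7978) with a RefSeq table. For cyp17a1 the probe with the older name was taken as a member too. Named genes are all member probes, the 2 probes of different genes with the smallest p at 4500 µg/L in each pathway list, and the 3 named genes most correlated with each member. Further members of these lists are named for their role or because their values go another way. Members, lists and tests were chosen with earlier results of these data known. The fit was tested on simulated data. In all, 14 alternatives and 16 omissions of single arrays were run, with 2 added after seeing the data. Among the alternatives, Aquantile normalization between arrays changes only intensities and left every log2 ratio as reported, so it tested nothing. Python 3.11.15 with pandas 2.3.3 and matplotlib 3.10.9 drew the figures.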

Additional observations from a re-analysis of the deposited data

Results flagged for a closer look

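Among 18 groups of 4 or 5 arrays (6 probes in the control, 500 and 4500 µg/L groups), 1 held an array far from the rest. cyp17a1 probe 5448319 had a log2 ratio of -0.7027 on 500 µg/L replicate 3, while the other 4 arrays of the group lay between 0.33 and 0.70. About 1 in 20 groups would be set apart by chance. On that array the spot was bright, with a Cy5 foreground of 2187 and a Cy3 foreground of 2520 scanner units by the mean over pixels, and its deposited log2 ratio was 0.31. The median pixel of the spot was 1751 in Cy5 and 1080 in Cy3. Without this array, the 500 µg/L group differed from control by -0.20 on the log2 scale, against -0.44 with it.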

How the results depend on the processing

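Against the reported values, the shbg probe 5454795 call at 4500 µg/L against control (-1.46) and the cyp17a1 probe 5453536 call at 4500 against 500 µg/L (1.45) were lost in several settings, and the number of probes called over all probes (707 and 19 in these comparisons) moved most. The cause was not tested, except where fewer probes or arrays entered.

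With only spots that kept a deposited ratio (7999 probes), shbg probe 5454795 had -1.71 (adjusted p = 0.0718), shbg probe 5464301 turned to 0.20 and 0.01 at the upper 2 concentrations, and 9 and 1 probes were called. With the deposited ratios themselves, shbg probe 5454795 had -1.32 (adjusted p = 0.212), shbg probe 5464301 turned to 0.15 at 1500 µg/L, cyp17a1 probe 5448319 turned to -0.02 between 4500 and 500 µg/L, and limma called 0 and 0 probes (1346 and 1345 unadjusted). cyp17a1 probe 5453536 and cyp19a1b gave no value in either setting. Without background correction, cyp17a1 probe 5448319 turned to 0.06 at 1500 µg/L, shbg probe 5454795 had -0.99 (adjusted p = 0.099), cyp17a1 probe 5453536 had 0.73 between 4500 and 500 µg/L (adjusted p = 0.0771), and 4 and 0 probes were called (4289 and 3992 unadjusted).

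The difference of shbg probe 5454795 between 4500 and 500 µg/L (-1.39, not called) passed with median foreground (-1.38), median centring (-1.28), 18 scans as separate arrays (-1.39) and array quality weights (-1.28), where 89, 356, 184 and 78 probes were called in that comparison. cyp17a1 probe 5448319 turned to -0.09 (median foreground) and -0.02 (median centring) between 4500 and 500 µg/L, and to 0.08 (18 scans) and 0.10 (weights) at 1500 µg/L, and shbg probe 5454795 turned to 0.01 at 500 µg/L with median centring. Against control at 4500 µg/L, 1644 (18 scans) and 1415 (weights) probes were called, and with weights cyp17a1 probe 5453536 passed there at 1.00 (adjusted p = 0.0437).

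With a term for arrays of low Cy3 background, cyp17a1 probe 5453536 had 1.26 between 4500 and 500 µg/L (adjusted p = 0.356), cyp17a1 probe 5448319 turned to -0.19 there, shbg probe 5464301 turned to 0.06 at 4500 µg/L, and 18 and 0 probes were called (3110 and 2160 unadjusted). Among probes brighter than the median, 71 and 0 were called (2425 and 2051 unadjusted), and cyp17a1 probe 5453536 and cyp19a1b dropped out. By the t-test of the methods, here adjusted over all probes, both calls were lost at unchanged values (-1.46 and 1.45, adjusted p = 0.281 and 0.264). With this adjustment 0 and 0 probes were called (3271 and 3298 unadjusted). The methods themselves take the unadjusted t-test, against control only, for probes past the one-way test at 20% FDR. The unadjusted t-test p were 0.0142 for shbg probe 5454795 and 0.00249 for cyp17a1 probe 5453536. With only the 2 groups compared in the limma fit both calls were lost too (-1.46 and 1.45, adjusted p = 0.0724 and 0.10), with 157 and 0 probes called (4020 unadjusted in the second).

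Deviations of same-numbered arrays correlated at a median of 0 (21 pairs, -0.28 to 0.30) and those of other pairs at -0.01. No shared deviation was thus seen, which does not show whether same-numbered arrays came from the same batch of larvae. With the replicate number as a block, cyp17a1 probe 5453536 had 1.39 between 4500 and 500 µg/L (adjusted p = 0.157), cyp17a1 probe 5448319 turned to 0.05 at 1500 µg/L, and 393 and 0 probes were called (3444 unadjusted in the second).

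The last 2 settings were chosen after seeing the data. In the Cy5 channel alone, shbg probe 5454795 turned to 0.45, 0.25 and 0.06 at 500, 1500 and 4500 µg/L, cyp17a1 probe 5448319 to 0.02 and hsd17b8 to 0.18 at 500 µg/L, and cyp17a1 probe 5448319 to -0.37 between 4500 and 500 µg/L. cyp19a1b kept its sign there but moved to -1.36 and -0.99 at 500 and 1500 µg/L (adjusted p = 1 and 0.75). The Cy3 signal of its spots was lower at these concentrations too, with centred means of -1.19 and -0.65, against -0.23 on control arrays. cyp17a1 probe 5453536 had 1.29 between 4500 and 500 µg/L (adjusted p = 0.33), and 0 and 0 probes were called (1805 and 2913 unadjusted). Over arrays with a Cy3 background of 150 units or more, shbg probe 5454795 had -2.01 (adjusted p = 0.099), cyp17a1 probe 5453536 had 1.01 (adjusted p = 0.485), cyp19a1b turned to 0.25 at 1500 µg/L (1 array), shbg probe 5464301 turned to 0.06 at 4500 µg/L, and 2 and 0 probes were called (3027 and 2142 unadjusted).

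Leaving out 1 array at a time, the values at 500, 1500 and 4500 µg/L against control ranged as follows. cyp17a1 probe 5448319 gave -0.67 to -0.20, -0.29 to 0.37 and -0.56 to -0.15, and probe 5453536 gave -0.80 to -0.53, 0.15 to 0.42 and 0.62 to 1.07. cyp19a1b gave -0.18 to 0.02, -0.65 to -0.18 and -0.48 to -0.28, and hsd17b8 gave -0.39 to -0.02, -0.57 to -0.20 and -0.32 to 0.05. shbg probe 5454795 gave -0.16 to -0.01, -0.44 to -0.27 and -1.71 to -1.06, and probe 5464301 gave -0.05 to 0.34, -0.40 to 0 and -0.23 to 0.16. Between 4500 and 500 µg/L the ranges were -0.13 to 0.30 and 1.29 to 1.74 for cyp17a1 probes 5448319 and 5453536, and -1.65 to -0.99 and -0.30 to 0.03 for shbg probes 5454795 and 5464301. The probes called at 4500 µg/L against control ranged from 25 (without 4500 µg/L replicate 2) to 2888 (without 4500 µg/L replicate 4), and those between 4500 and 500 µg/L from 0 to 1682. Dim spots limit cyp17a1 probe 5453536 and cyp19a1b, whose median Cy5 foreground was 1.51 and 1.78 times the background.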
